A study of Mus musculus with 12 samples.

Results

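The AP-1 transcription factors were followed on 12 Affymetrix mouse gene arrays of splenic lymphocytes. The 10 genes are the Fos genes Fos, Fosb, Fosl1 and Fosl2, the Jun genes Jun, Junb and Jund, the Batf genes Batf and Batf3, and Atf3. They were taken by symbol from probe sets with 1 gene symbol, and all 10 were found among the 19937 genes measured, each by 1 probe set. The arrays carry 4 labels with 3 arrays each. They are B cells activated for 4 days with αCD40 and IL-4, resting B cells of day 0, T cells activated for 4 days with αCD3, αCD28 and IL-2, and resting T cells of day 0. All cells came from the spleen of C57Bl/6 x FVB mice, the B cells as the CD43-negative and the T cells as the B220-negative fraction, so that the T cell gate can hold other cells that lack B220. No age of the mice is stated, nor whether the 3 arrays of a label stand for 3 mice, and p-values therefore measure only the spread between these arrays, which may be technical. Values are log2 expression levels from RMA, in which the probes of a set are summarised after background correction and a common scaling of the arrays. Arrays have no read depth, and their number limits the precision. A level of 5.21 log2, under which 95% of 1027 olfactory receptor genes lay, served as background.

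AP-1 factors are basic leucine zipper proteins that bind DNA in pairs. Fos proteins need a Jun partner, while Jun proteins can also pair among themselves, with ATF proteins and with BATF proteins. Fos, Fosb, Jun and Junb are classical immediate early genes, transcribed within minutes of a stimulus through MAP kinases and soon silent again. BATF and BATF3 lack the activation domains of Fos, pair with Jun proteins, and in lymphocytes bind together with IRF4 or IRF8 at composite sites. BATF is required for T helper differentiation and for antibody class switching, and BATF3 is best known from the CD8α dendritic cell lineage.

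The lineage genes ran against the labels in all 4 groups, and the arrays are therefore named by their labels throughout. The mean over 7 measured T cell genes, such as Cd3e, lay between 9.78 and 9.92 log2 in the 3 activated B-labelled arrays and between 10.15 and 10.27 in resting B-labelled ones. It lay between 5.62 and 6.42 in activated T-labelled arrays and between 5.20 and 5.71 in resting T-labelled ones. The mean over 6 B cell genes, such as Cd79a, was 5.05 to 5.39 log2 in activated B-labelled arrays, 7.33 to 8.62 in resting B, 11.29 to 11.43 in activated T and 10.12 to 10.43 in resting T. The mean over 4 genes of dividing cells, such as Mki67, was 10.16 to 10.19 log2 in activated B-labelled arrays, 5.62 to 6.20 in resting B, 5.31 to 6.08 in activated T and 9.70 to 9.80 in resting T. The genes of dividing cells were thus high under the activated label in the B-labelled arrays and under the resting label in the T-labelled ones. Each direction given here is the direction between labelled groups.

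Fos, Fosb and Jun were low in the activated B-labelled arrays and high in the resting B-labelled ones, and high in the activated T-labelled arrays and low in the resting T-labelled ones. Fos, the founding partner of Jun, was at 5.30, 5.41 and 5.13 log2 in activated B-labelled arrays, against 8.64, 9.0 and 8.56 in resting B-labelled ones. It was at 9.26, 8.59 and 8.42 log2 in activated T-labelled arrays, against 5.53, 5.36 and 5.52 in resting T-labelled ones. The 2 low groups lay near the background and did not overlap the 2 high ones, and a level so near the background limits how large a difference can appear. Fos fell by 3.46 on the log2 scale in activated B-labelled arrays relative to resting B (standard error 0.17, adjusted p = 8.63e-11 from limma), and rose by 3.29 in activated T-labelled arrays relative to resting T (standard error 0.17, adjusted p = 1.77e-10).

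Fosb, which has the same partners as Fos, was at 5.42, 5.68 and 5.68 log2 in activated B-labelled arrays, against 8.24, 8.39 and 8.03 in resting B-labelled ones. In activated T-labelled arrays it was at 9.45, 9.15 and 8.74 log2, against 5.99, 5.56 and 5.55 in resting T-labelled ones. The high and the low groups again did not overlap, and activated T-labelled arrays lay above all others. The low groups had means of 5.59 and 5.70 log2, near the background, which again limits how large a difference can appear. The log2 fold changes were -2.63 in the labelled B arrays and 3.41 in the labelled T arrays (adjusted p = 1.38e-09 and 6.46e-11 from limma). Jun, which can bind DNA with or without a Fos partner, was at 6.86, 7.37 and 7.14 log2 in activated B-labelled arrays, against 10.57, 10.88 and 10.43 in resting B-labelled ones. It was at 11.02, 10.21 and 10.37 log2 in activated T-labelled arrays, against 8.58, 8.63 and 8.88 in resting T-labelled ones. Jun was thus well above the background in every array, and its 2 low groups differed from each other. Its log2 fold changes were -3.50 and 1.83 (standard error 0.18 for each, adjusted p = 1.64e-10 and 4.98e-07 from limma).

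**Figure D1:**
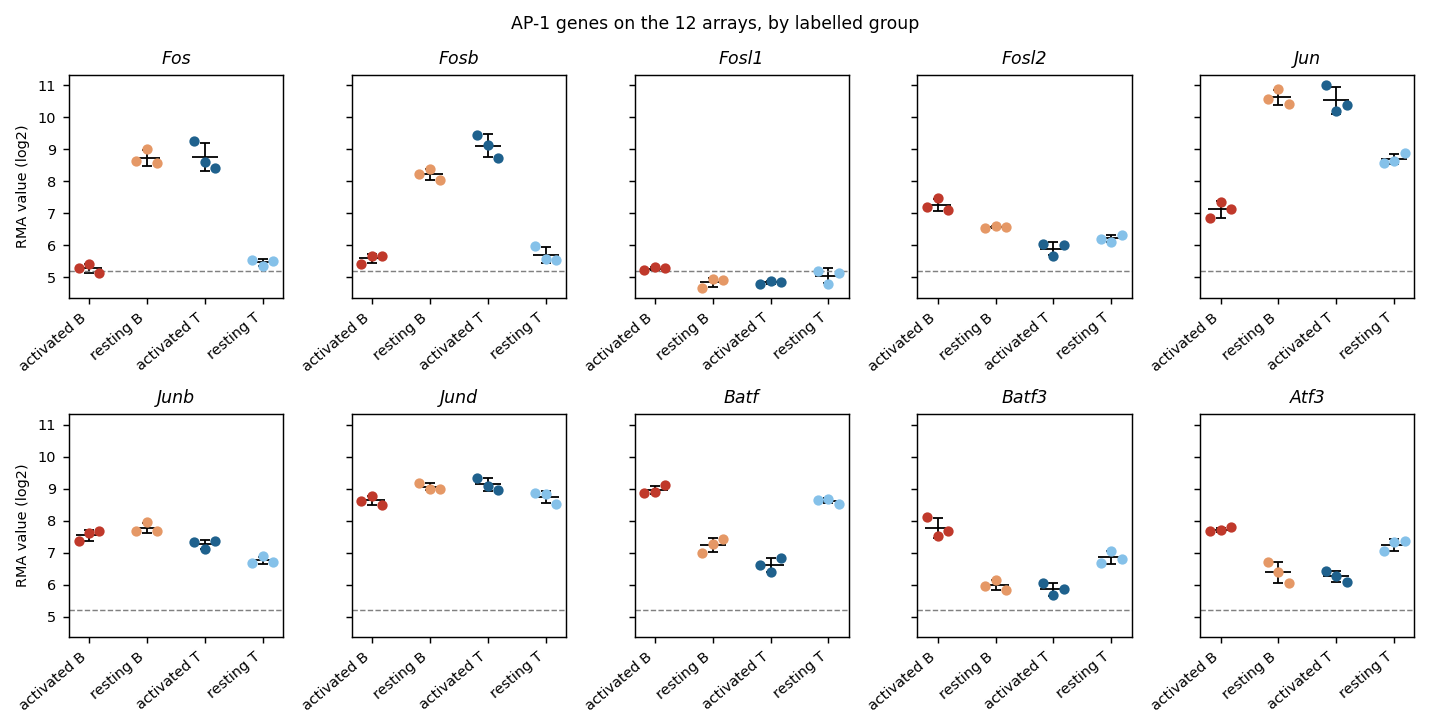
RMA values (log2, y axis) of the 10 AP-1 genes in the 3 arrays of each labelled group (points, x axis), with lines for the mean ± SD and a dashed line at 5.21 log2, the background. Fos, Fosb and Jun are high in activated T- and resting B-labelled arrays, and Batf, Batf3 and Atf3 in activated B- and resting T-labelled ones.

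The 3 genes that were high together are shown with the bases before their start sites, to set their sequences beside those of the genes that ran opposite. Of the 10 genes, 9 were matched to a promoter window of RefSeq on build GRCm38.p6, and the 120 bases before the start are printed for Fos (chr12:85473770-85473889, + strand), Fosb (chr7:19310046-19310165, - strand) and Jun (chr4:95052223-95052342, - strand). Capitals mark the core of the cAMP response element, TGACG, the variant TGACATCA and the TATA box TATAAA, each sought on both strands.
Fos: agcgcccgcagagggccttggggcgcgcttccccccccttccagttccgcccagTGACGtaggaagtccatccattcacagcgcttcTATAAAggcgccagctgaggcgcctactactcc
Fosb: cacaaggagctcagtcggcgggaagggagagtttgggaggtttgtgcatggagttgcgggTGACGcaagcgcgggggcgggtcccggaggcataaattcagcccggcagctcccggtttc
Jun: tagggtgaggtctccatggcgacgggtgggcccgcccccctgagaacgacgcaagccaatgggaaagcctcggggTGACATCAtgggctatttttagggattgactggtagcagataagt
With the last base before the start as position -1, the core TGACG lay from position -66 in Fos and -60 in Fosb, and TGACATCA, a variant added to the search after the sequence was seen, from -45 in Jun. In windows of 250 bases before to 50 after a start, TGACG was found in 20.8% of 32851 windows, TGACATCA in 3.62% and TATAAA in 13.6%. Among the 9 windows of AP-1 genes, TGACG was in 5 (Fos, Fosb, Junb, Batf and Atf3). There TGACATCA was in Jun alone, and TATAAA was in 2 (Fos and Junb). A further TGACG lay from -129 in Fos, outside the printed bases, and that of Junb lay from -106. The full element TGACGTCA and the AP-1 site TGACTCA, found in 1.79% and 5.2% of all windows, were in none of the 9 windows, nor was the CArG box (1.63%). Bases further upstream were not searched, so this does not show that a gene lacks such a site. The full element contains the core. A match is a description of the letters and not of binding.

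The other Fos and Jun genes differed less between activated and resting. Fosl2, which encodes Fra-2, was at 7.21, 7.48 and 7.10 log2 in activated B-labelled arrays, against 6.54, 6.60 and 6.56 in resting B-labelled ones, and it ran the other way to Fos with a log2 fold change of 0.70 (adjusted p = 0.000117 from limma). In activated T-labelled arrays it was at 6.03, 5.68 and 6.00 log2, against 6.20, 6.12 and 6.33 in resting T-labelled ones. That fall of 0.31 passed the test narrowly (adjusted p = 0.047 from limma) and no longer did without activated T replicate 5 (-0.20, adjusted p = 0.247), activated B replicate 1, resting B replicate 1, 2 or 3, or resting T replicate 4 or 6 (adjusted p up to 0.153 without one of these). It was also lost with each array centred on its 75th percentile (-0.24, adjusted p = 0.157) and in a fit of only the arrays compared (adjusted p = 0.0655). Fosl1, which encodes Fra-1, was between 4.68 and 5.32 log2 on all 12 arrays, which is at or near the background, so that its log2 fold change of 0.42 in the labelled B arrays (adjusted p = 0.00624 from limma) is a difference between levels at the limit of the measurement. In the labelled T arrays it had -0.20 (adjusted p = 0.198), which passed only without resting T replicate 5 (-0.33, adjusted p = 0.021).

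Junb, whose protein is known to counter Jun on some targets, was at 7.35, 7.60 and 7.67 log2 in activated B-labelled arrays, against 7.68, 7.95 and 7.67 in resting B-labelled ones. These groups overlapped, and the log2 fold change of -0.23 did not pass the test (95% interval -0.47 to 0.02, adjusted p = 0.151 from limma), though it did with each array centred on its 75th percentile (-0.33, adjusted p = 0.0309) and after quantile normalization (-0.34, adjusted p = 0.0219). In activated T-labelled arrays it was at 7.32, 7.10 and 7.35 log2, against 6.69, 6.89 and 6.70 in resting T-labelled ones, a rise of 0.50 (adjusted p = 0.00241 from limma). Jund, the Jun gene known for steady expression in resting cells, spanned 8.5 to 9.34 log2 over the 12 arrays. It fell by 0.43 in activated B-labelled arrays (adjusted p = 0.0093 from limma, and 0.0513 without activated B replicate 3) and rose by 0.39 in activated T-labelled ones (adjusted p = 0.0185, and 0.105 without activated T replicate 4 or 0.0984 without resting T replicate 6). With an array left out, the log2 fold changes of Fos, Fosb and Jun stayed between -3.63 and -2.54 in the labelled B arrays and between 1.59 and 3.60 in the labelled T arrays, and all kept their calls.

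Batf and Batf3 ran opposite to Fos, Fosb and Jun. Batf was at 8.86, 8.91 and 9.10 log2 in activated B-labelled arrays, against 7.0, 7.26 and 7.44 in resting B-labelled ones. It was at 6.62, 6.38 and 6.84 log2 in activated T-labelled arrays, against 8.66, 8.67 and 8.53 in resting T-labelled ones. The high groups lay at least 1 log2 above every array of the low groups. Batf rose by 1.72 on the log2 scale in activated B-labelled arrays (standard error 0.13, adjusted p = 1.22e-08 from limma) and fell by 2.01 in activated T-labelled ones (standard error 0.13, adjusted p = 1.94e-09). Batf3 was at 8.11, 7.51 and 7.68 log2 in activated B-labelled arrays, against 5.97, 6.16 and 5.84 in resting B-labelled ones. In activated T-labelled arrays it was at 6.06, 5.67 and 5.86 log2, against 6.69, 7.06 and 6.81 in resting T-labelled ones. Activated B-labelled arrays were thus the highest for Batf3, and its log2 fold changes were 1.78 and -0.99 (standard error 0.15 for each, adjusted p = 6.22e-08 and 5.28e-05 from limma).

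Atf3, a stress-induced factor that pairs with Jun proteins and often represses its targets, followed Batf3 although it is itself counted among the immediate early genes. It was at 7.67, 7.70 and 7.79 log2 in activated B-labelled arrays, against 6.72, 6.38 and 6.05 in resting B-labelled ones. It was at 6.42, 6.27 and 6.09 log2 in activated T-labelled arrays, against 7.04, 7.32 and 7.36 in resting T-labelled ones. The log2 fold changes were 1.34 and -0.98 (adjusted p = 1.04e-06 and 3.51e-05 from limma), with no overlap of the arrays in either comparison. The 120 bases before the starts of these 3 genes are given for comparison with those of Fos, Fosb and Jun, from chr12:85686600-85686719 (+ strand) for Batf, chr1:191098294-191098413 (+ strand) for Batf3 and chr1:191183334-191183453 (- strand) for Atf3, with the same letters in capitals.
Batf: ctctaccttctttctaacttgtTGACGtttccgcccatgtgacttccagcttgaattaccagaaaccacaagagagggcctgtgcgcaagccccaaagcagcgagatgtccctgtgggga
Batf3: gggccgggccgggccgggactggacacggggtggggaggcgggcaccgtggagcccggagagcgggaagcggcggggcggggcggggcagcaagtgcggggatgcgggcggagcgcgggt
Atf3: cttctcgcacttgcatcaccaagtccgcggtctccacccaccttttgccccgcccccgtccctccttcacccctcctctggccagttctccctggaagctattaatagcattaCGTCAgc
The core TGACG lay from position -98 in Batf, and on the other strand from -7 to -3 in Atf3. Batf3, with 82.5% G and C in these bases against 52.5% in Batf, held none of the capitalised motifs there. The STAT site TTCNNNGAA, found in 8.3% of all windows, was in the window of Batf3 from position -239 and in no other of the 9.

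Set side by side, the genes split within each labelled cell type, with Fos, Fosb and Jun opposite to Batf, Batf3 and Atf3. The Fos genes did not move as 1 group. Fosl1 and Fosl2 had the sign of Batf in both labelled cell types, though Fosl1 was not called in the labelled T arrays. Between activated and resting B-labelled arrays, 5 of the 10 genes were higher and 4 lower, where 36.5% of all genes were called (19.7% higher and 16.7% lower). Of the 7 Fos and Jun genes 4 were lower and 2 higher, with a median log2 fold change of -0.43, while Batf and Batf3 were both higher. The difference reached 2-fold in 6 of the 10, against 9.12% of all genes, and 9 of the 10 did not overlap between the groups, against 46.6%. Between activated and resting T-labelled arrays, 5 genes were higher and 4 lower, where 33.7% of all genes were called (15.9% higher and 17.8% lower). Here 5 of the 7 Fos and Jun genes were higher and 1 lower, with a median of 0.50, and Batf and Batf3 were both lower. The difference reached 2-fold in 4 of the 10, against 7.9% of all genes, and 9 of the 10 did not overlap, against 42.3%. The median over all genes was -0.02 in the labelled B arrays and 0.02 in the labelled T arrays. With each array centred on its 75th percentile, the median over all genes in the labelled B arrays was -0.12, and 41.9% of the called genes were higher, against 54.1% without it. In the labelled T arrays this centring gave a median of 0.09, with 56.7% of the called genes higher, against 47.3% without it.

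**Figure D2:**
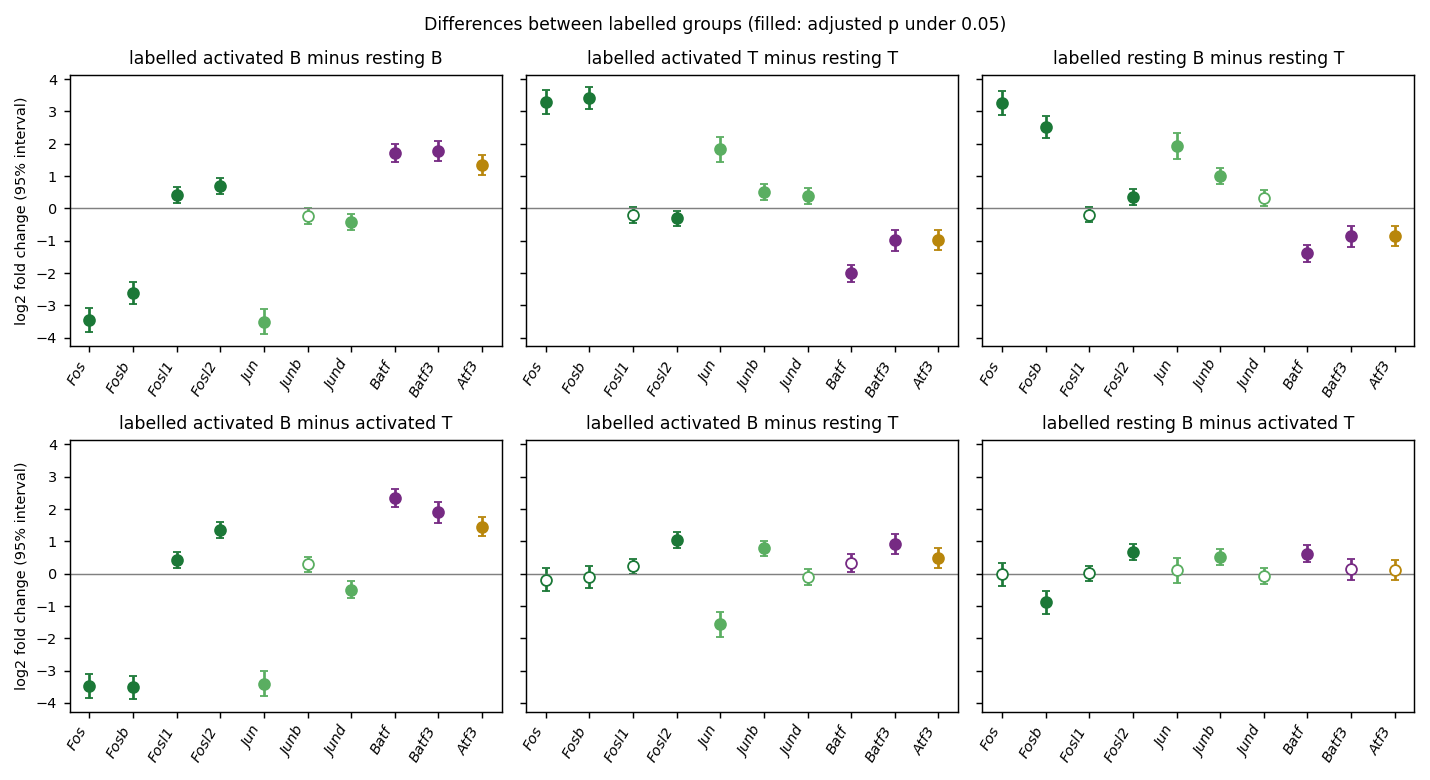
Log2 fold changes (y axis) of the 10 genes (x axis) in the 6 comparisons of 2 labelled groups, with 95% intervals as bars and filled points for an adjusted p under 0.05 from limma. Fos, Fosb and Jun lie on 1 side of 0 and Batf, Batf3 and Atf3 on the other in the first 4 comparisons.

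These opposite changes were tested against each other with the interaction, which is activated minus resting in the labelled B arrays less the same difference in the labelled T arrays. It was called for all 10 genes, 5 above 0 and 5 below, where 42.7% of all genes were called (21.9% above and 20.9% below). It reached 2-fold in 7 of the 10, against 21.2% of all genes. With the arrays centred on their 75th percentile, 38.1% of all called genes were above 0, against 51.2% without it, and the median over all genes was -0.21. The value was -6.74 for Fos, -6.04 for Fosb and -5.34 for Jun (adjusted p up to 3.62e-11 from limma), and 3.73 for Batf, 2.76 for Batf3 and 2.32 for Atf3 (adjusted p up to 5.6e-08). Of the other 4, Fosl1 and Fosl2 had values of 0.63 and 1.01, and Junb and Jund -0.72 and -0.81.

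**Figure D3:**
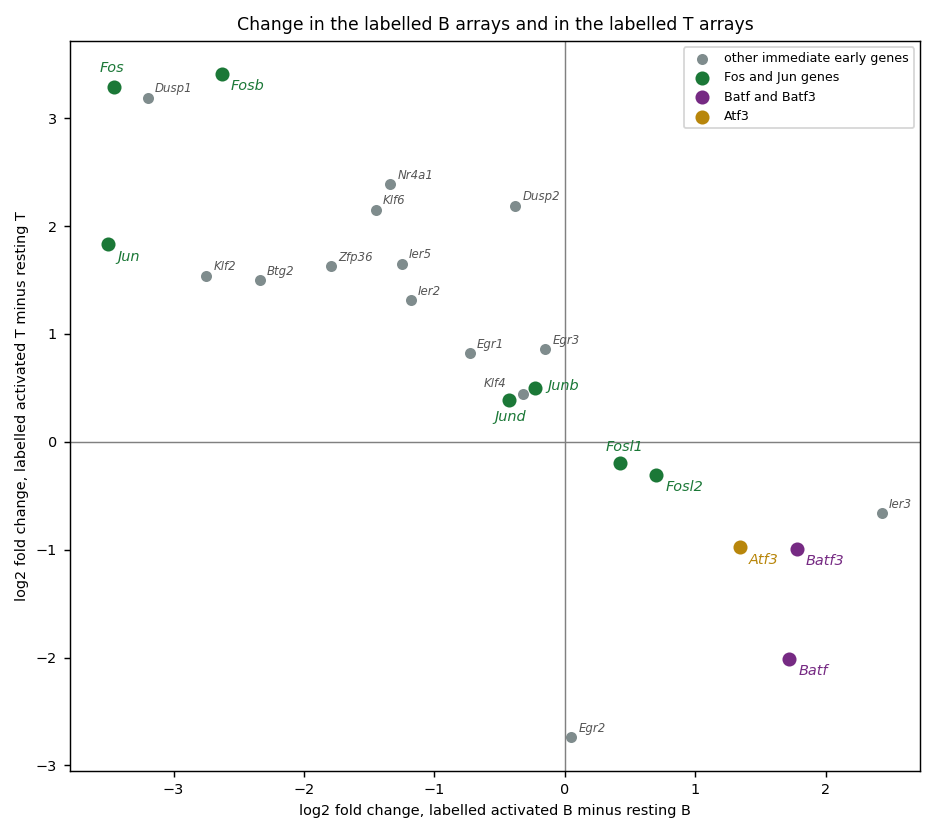
Log2 fold change of activated minus resting in the labelled B arrays (x axis) and in the labelled T arrays (y axis) for the 10 AP-1 genes (coloured) and 14 other immediate early genes (grey). Fos, Fosb and Jun lie at the upper left with Dusp1 and most immediate early genes, and Batf, Batf3 and Atf3 at the lower right.

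Between the labelled cell types, the split had the same form. In resting B-labelled arrays relative to resting T, 5 of the 10 genes were higher and 3 lower, where 35.1% of all genes were called (16.1% higher and 19% lower). Fos, Fosb and Jun were higher by 3.27, 2.52 and 1.93 on the log2 scale, Junb by 1.01, and Batf, Batf3 and Atf3 had differences of -1.39, -0.86 and -0.86 (adjusted p up to 0.00019 from limma for these 7). Fosl2 was higher by 0.35, a call lost without resting B replicate 2 or 3 or resting T replicate 4 or 5 (adjusted p up to 0.0935), and Jund had 0.32 (adjusted p = 0.0513), which passed without activated T replicate 4 or 6 or resting T replicate 4 (adjusted p from 0.0388 to 0.0457). Jund also passed with 75th percentile centring (0.37, adjusted p = 0.0225), quantile normalization (0.41, adjusted p = 0.0119), only genes above the background (adjusted p = 0.0321) and an intensity trend with robust settings (adjusted p = 0.0252). In activated B-labelled arrays relative to activated T, 5 were higher and 4 lower, where 40.7% of all genes were called (21.8% higher and 18.9% lower). Fos, Fosb and Jun had differences of -3.48, -3.52 and -3.41, and Batf, Batf3, Atf3 and Fosl2 of 2.34, 1.90, 1.46 and 1.36 (adjusted p up to 2.52e-07 from limma). In the first of these comparisons 5 genes differed by at least 2-fold, against 9.64% of all genes, and 9 did not overlap, against 42.6%. In the second, 7 differed by at least 2-fold, against 12.2%, and 10 did not overlap, against 51.1%. There the 75th percentile centring moved the median over all genes to -0.15, and 39.2% of the called genes were higher, against 53.5% without it. In the first, 52.2% were higher with this centring, against 45.9% without it. These comparisons share arrays with those within the labelled cell types and repeat them in part.

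The remaining pairs set the groups with like levels against each other. Between activated B-labelled arrays and resting T, in which Fos and Fosb were low and the Batf genes high, 4 of the 10 genes were higher and 1 lower, where 23% of all genes were called (13% higher and 9.93% lower). Jun had a log2 fold change of -1.57 (adjusted p = 4.43e-06 from limma), and Fosl2, Batf3, Junb and Atf3 were higher by 1.05, 0.92, 0.78 and 0.48 on the log2 scale. The call of Atf3 was lost without resting T replicate 4 (0.38, adjusted p = 0.115) or activated B replicate 2 or 3, and with 75th percentile centring (0.44, adjusted p = 0.0549). For Fos the difference was -0.19 (95% interval -0.55 to 0.18), for Fosb -0.11 (-0.45 to 0.24) and for Batf 0.34 (0.06 to 0.61, adjusted p = 0.0736), none of which passed. At least 2-fold differences were seen in 2 of the 10, against 5.58% of all genes, and 7 did not overlap, against 35.2%. Between resting B-labelled arrays and activated T, in which Fos and Jun were high, 3 of the 10 were higher and 1 lower, where 18.5% of all genes were called (9.68% higher and 8.82% lower). Fosb had a log2 fold change of -0.89 (adjusted p = 0.000597 from limma), and Fosl2, Batf and Junb were higher by 0.66, 0.62 and 0.51. The differences of Fos, Jun and Batf3 did not pass the test, at -0.02 (95% interval -0.39 to 0.34), 0.10 (-0.29 to 0.49) and 0.13 (-0.19 to 0.45). None of the 10 differed by 2-fold, against 4.92% of all genes, and 4 did not overlap, against 31.3%.

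The group means can be put in order for each gene, with neighbours that did not pass the test given together. For Fos, activated T and resting B, whose arrays overlapped, stood above resting T and activated B, whose arrays overlapped as well. For Fosb the order was activated T, resting B, and then resting T with activated B. For Jun it was resting B with activated T, then resting T, then activated B. For Batf it was activated B, resting T, resting B and activated T. The first step of Batf missed the threshold (0.34, adjusted p = 0.0736), although the arrays did not overlap and the 95% interval of 0.06 to 0.61 lay above 0. For Batf3 and Atf3 the order was activated B, resting T, and then resting B with activated T. The means of Fosl2 ran from activated B over resting B and resting T to activated T, with the last 2 steps (0.35 and 0.31) lost when certain single arrays were left out. Junb was lowest in resting T-labelled arrays. Its arrays overlapped between activated B and resting B, but not between activated B and activated T, where the difference of 0.29 (95% interval 0.04 to 0.53) missed the threshold (adjusted p = 0.0577 from limma).

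Within the labelled groups, the 3 arrays were not equally high for Fos, Fosb and Jun. In activated T-labelled arrays, replicate 4 was above the group mean by 0.50 log2 for Fos, 0.34 for Fosb and 0.49 for Jun, and in resting B-labelled ones, replicate 2 was above it by 0.27, 0.17 and 0.25. Over the 12 deviations from the group means, Fos correlated with Jun at r = 0.81 and with Fosb at 0.73, and Fosb with Jun at 0.55. With Batf the values were -0.20 for Fos, -0.25 for Fosb and 0.03 for Jun. For the 14 other immediate early genes the median r of the deviations was 0.32 for Fos, 0.48 for Fosb and 0.46 for Jun. Single genes ranged from -0.09 to 0.85 for Fos, -0.04 to 0.91 for Fosb and -0.29 to 0.82 for Jun. The median over all 12169 other genes above the background was 0.06, 0.03 and 0.11. These are descriptions over 12 arrays that share 4 group means. Without activated T replicate 4, the difference of Fos between resting B-labelled arrays and activated T was 0.23 in place of -0.02 (adjusted p = 0.329 from limma), and no call of Fos, Fosb or Jun changed in any comparison when an array was left out.

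**Figure D4:**
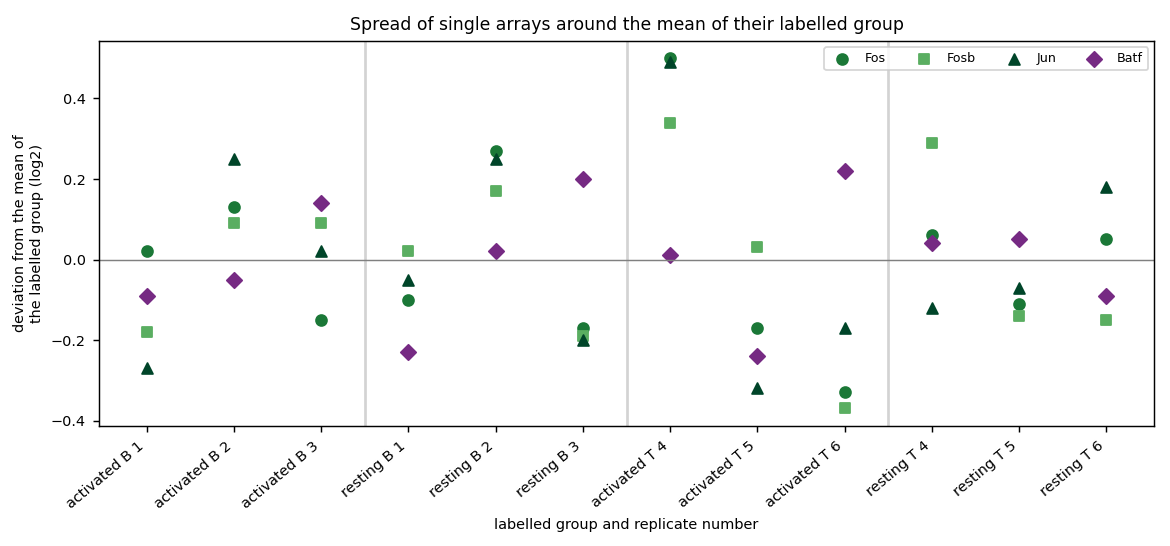
Deviation of each array from the mean of its labelled group (log2, y axis) for Fos, Fosb, Jun and Batf (markers), with the 12 arrays by labelled group and replicate number on the x axis. Replicate 4 of activated T-labelled arrays is above its group mean by 0.50 for Fos and 0.49 for Jun and at 0.01 for Batf.

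The other immediate early genes went with Fos and Jun for the most part. Of 14 such genes, 11 were lower and 1 higher in activated B-labelled arrays relative to resting B, with a median log2 fold change of -1.22, and 12 were higher and 2 lower in activated T-labelled arrays relative to resting T, with a median of 1.52. Dusp1, a phosphatase that switches MAP kinases off, was at 7.13 ± 0.07 (SD, n = 3) log2 in activated B-labelled arrays and 10.33 ± 0.12 in resting B-labelled ones, with log2 fold changes of -3.20 and 3.19 in the labelled B and T arrays. Klf2, a factor of naive lymphocytes, had -2.75 and 1.54, and Nr4a1, an orphan receptor induced by antigen receptors, had -1.34 and 2.39 (adjusted p up to 4.1e-07 from limma). Among the exceptions were Ier3 and Egr2. Ier3, a stress-response gene, rose by 2.43 in activated B-labelled arrays and fell by 0.66 in activated T-labelled ones. Egr2, a zinc finger factor induced by antigen receptors, fell by 2.74 in activated T-labelled arrays, and its log2 fold change in the labelled B arrays was 0.05 (adjusted p = 0.816). The share of all genes called in these comparisons is the one given for the AP-1 genes.

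Markers of dividing cells and of other cell types also differed between the labelled groups. All 4 measured genes of dividing cells were higher in activated B-labelled arrays than resting B (median 4.12 on the log2 scale) and lower in activated T-labelled ones than resting T (median -4.05), as Batf was. Of 7 macrophage and monocyte markers, 6 were lower in activated B-labelled arrays than resting B. In activated T-labelled arrays relative to resting T, 3 were higher and 4 not called. Of all genes, 36.5% and 33.7% were called in these comparisons. The log2 of their summed level lay between 7.86 and 8.03 in activated B-labelled arrays, 10.20 and 10.83 in resting B, 9.98 and 10.39 in activated T and 9.40 and 9.63 in resting T. Marco was under the background in all 4 groups. Of 4 dendritic cell markers 4 and of 3 natural killer markers 3 were lower in activated B-labelled arrays than resting B. In activated T-labelled arrays relative to resting T, 2 dendritic markers were higher, 1 was lower and 1 was not called. All 3 natural killer markers were higher there. The log2 of the summed level of the dendritic markers was 7.15 to 7.36 in activated B-labelled arrays, 8.34 to 8.64 in resting B, 8.33 to 8.71 in activated T and 7.85 to 8.08 in resting T. For natural killer markers it was 5.43 to 5.98, 8.58 to 9.67, 7.02 to 8.47 and 6.02 to 6.55 in the same order of groups, and none of the 3 was above the background in activated B-labelled arrays or resting T. The 3 neutrophil markers were under the background in all groups except Ly6g in activated B-labelled arrays. The part of these cells in the differences of the AP-1 genes was not tested. In such bulk samples, fewer cells of a type and less RNA per cell cannot be told apart.

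Of the factors that bind beside AP-1, the IRF and NFAT genes did not move as 1 group. Of 8 such genes, 2 were higher and 3 lower in activated B-labelled arrays than resting B (median -0.06). In activated T-labelled arrays relative to resting T, 5 were higher and 2 lower (median 0.58). Of all genes, 36.5% and 33.7% were called in these comparisons. Irf4, the partner of BATF at composite sites, was at 9.63 ± 0.22 (SD, n = 3) log2 in activated B-labelled arrays and 6.63 ± 0.26 in resting B-labelled ones, and at 8.97 ± 0.23 in activated T-labelled ones and 10.10 ± 0.10 in resting T-labelled ones. It differed with the sign of Batf in both labelled cell types (3.0 and -1.13, adjusted p = 6.29e-11 and 8.5e-06 from limma). Irf8, the other partner, had 0.20 (adjusted p = 0.18) and -0.35 (adjusted p = 0.0177). The NFAT proteins cooperate with Fos and Jun at cytokine genes. Nfatc1 and Nfatc3 had -0.38 and -0.69 in the labelled B arrays and 1.02 and 0.77 in the labelled T arrays, the sign of Fos. Nfatc2 was higher in both (0.54 and 0.50), and Nfat5 had 0.10 (adjusted p = 0.588) and 1.26.

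Among 20 measured basic leucine zipper relatives, 9 were higher and 5 lower in activated B-labelled arrays than resting B (median 0.02). In activated T-labelled arrays relative to resting T, 6 were higher and 6 lower (median -0.01). Of all genes, 36.5% and 33.7% were called in these comparisons. Nfil3, a repressor known from IL-4 and natural killer cell biology, had the largest change of the 20, at 4.55 and -5.29 on the log2 scale (adjusted p = 6.34e-13 and 4.35e-13 from limma). Maf, a factor of IL-4 and IL-21 producing T cells, and Crem, which responds to cAMP, rose by 2.07 and 1.62 in activated B-labelled arrays. Bach1 and Nfe2l2, which compete at antioxidant sites, fell by 1.17 and 1.03 there and rose by 0.64 and 0.82 in activated T-labelled arrays. Bach2, which binds AP-1-like sites and holds lymphocytes in a resting state, had -0.77 and 1.14. Of 13 measured genes of the MAP kinase cascade, 2 were higher and 3 lower in activated B-labelled arrays than resting B (median 0.14). In activated T-labelled arrays relative to resting T, 5 were higher and 1 lower (median 0.11). The shares of all genes called were 36.5% and 33.7%, so these counts alone do not set the cascade apart. Elk4, a partner of the serum response factor at the Fos promoter, fell by 1.5 in activated B-labelled arrays and rose by 0.55 in activated T-labelled ones, and Mapk8, the Jun kinase JNK1, fell by 0.95 in activated B-labelled arrays. Map2k3, a kinase that activates p38, and Map3k7, the kinase TAK1, were higher there by 0.98 and 0.50, against the sign of Fos.

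Genes known to depend on BATF in lymphocytes were mostly higher in activated B-labelled arrays. Of 8 such genes, 6 were higher and 1 lower than in resting B-labelled arrays (median 2.02). In activated T-labelled arrays relative to resting T, 1 was higher and 2 lower (median -0.06). Of all genes, 36.5% and 33.7% were called in these comparisons. The cytokine gene Il10 was at 8.04 ± 0.07 (SD, n = 3) log2 in activated B-labelled arrays and 3.70 ± 0.19 in resting B-labelled ones, and Il21 at 7.43 ± 0.31 and 3.31 ± 0.01. In activated T-labelled arrays, Il10 and Il21 were at 3.70 and 3.43 log2, against 3.75 and 3.30 in resting T-labelled ones, all under the background. Batf was at 8.62 in resting T-labelled arrays, where the mean over the T cell genes was 5.20 to 5.71. Prdm1, the factor of plasma and effector cells, followed Batf in both (1.77 and -1.55), and so did Ctla4 (1.97 and -1.27). Bcl6, the factor of germinal centre and follicular helper cells, ran the other way (-1.42 and 1.49, adjusted p = 6.29e-07 and 4.15e-07 from limma). Il17a was at 5.5 to 5.64 log2 in the 4 group means and passed in neither comparison. BATF itself was not manipulated in these cells.

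The genes whose values were most like those of the AP-1 genes over the 12 arrays were sought among genes above the background, by Pearson's r. The 3 nearest to Fos were Rgs2, Tcp11l2 and Rb1cc1 (r = 0.995, 0.992 and 0.992), and Rgs2 encodes an inhibitor of G-protein signalling. Nearest to Fosb was Clk4 (0.992) and to Jun Plekha1 (0.984). The 3 nearest to Batf were Mcm4, a subunit of the replicative helicase, Ldha, which encodes lactate dehydrogenase A, and Tcf19 (0.994, 0.993 and 0.993). Nearest to Batf3 was Polr2f, a subunit of the RNA polymerases (0.986), and to Atf3 Ska1, which acts at the kinetochore (0.978). For Fosl1, whose values lie at the background, the highest r was 0.902, for Fosl2 0.980 (Spint2), for Junb 0.961 (Tet1) and for Jund 0.943 (Parp6). With 4 groups that lie apart, such values describe the order of the groups more than the arrays within them.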

How the data were processed

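Total RNA of 12 samples, 3 for each of 4 labels, was hybridised to Affymetrix mouse gene arrays. The table deposited by the authors holds log2 values for every probe set, made by RMA according to the submitters' processing notes; the sources used here name neither its version nor a filter. Of 34760 probe sets, 21640 have 1 gene symbol, 1321 several and 11799 none named here. Where a symbol had more probe sets (954 genes), the brightest over all arrays stood for it. Any 2 arrays had at most 0.069% of values in common.

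Group means were fitted in limma 3.58.1 (R 4.3.3) with 1 variance per gene over 12 arrays (8 residual and 7.8 prior degrees of freedom). The 6 pairs of groups and the interaction were tested with Benjamini-Hochberg adjustment over 19937 genes at 0.05. The fit was first tested on simulated data with known changes. The members, lists and comparisons were chosen with earlier results of these data known. Apart from the 10 members, genes were named by rule (in each list and direction the 2 called genes with the largest change, and the 3 nearest genes) or after their values were seen. Not every gene that the rule picks is named in the text, among them Irf2, Map3k1, Mapk14 and Atf5. The 3 erythroid markers on the list were not analysed here. Tables and figures were made in Python 3.11.15 with pandas 2.3.3 and matplotlib 3.10.9. Promoter sequences are from RefSeq (GRCm38.p6), in which Fosl1 was not matched.

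The labels give both B groups replicate numbers 1 to 3 and both T groups 4 to 6. For 12170 genes above background, the deviations of arrays with the same number had correlations of -0.06, 0.06 and 0.25 for B and 0.22, 0.16 and 0.23 for T, which pairs the T-labelled arrays only. Alternatives covered scaling (median, 75th percentile, quantile), dim genes, several probe sets per gene, the arrays fitted, the variance prior, weights for arrays, and a replicate block.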

Additional observations from a re-analysis of the deposited data

Results flagged for a closer look

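The difference between activated and resting was not the same in the labelled B and the labelled T arrays for any of the 10 AP-1 genes, by the interaction test in limma over all genes. As log2 values of the labelled B arrays less those of the labelled T arrays, it was -6.74 for Fos, -6.04 for Fosb, -5.34 for Jun, -0.81 for Jund and -0.72 for Junb. It was 3.73 for Batf, 2.76 for Batf3, 2.32 for Atf3, 1.01 for Fosl2 and 0.63 for Fosl1. The highest adjusted p was 0.00372, for Fosl1, whose levels lie at the background. The log2 fold changes had opposite signs in the labelled B and labelled T arrays for all 10 genes, although Junb did not pass the test in the labelled B arrays nor Fosl1 in the labelled T arrays. Of all genes, 42.7% were called for the interaction. All 4 measured genes of dividing cells were called above 0 too, with a median of 8.17. The medians of these 4 genes were 4.12 within the labelled B arrays and -4.05 within the labelled T arrays. The labels themselves run against the lineage genes. The opposite signs are therefore between labels and are not shown to be between B and T cells.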

How the results depend on the processing

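Of 1413 values of single AP-1 genes under an alternative, 1359 kept direction and side of the threshold, 20 lost a call, 20 gained one and 14 changed sign. The number of the 10 genes called ranged from 8 to 10 for activated against resting B-labelled arrays, 7 to 10 for T-labelled ones, 7 to 9 for resting B against resting T, 9 to 10 for activated B against activated T, 4 to 6 for activated B against resting T, and 9 to 10 for the interaction, and was 4 throughout for resting B against activated T. With the replicate block, 9, 9 and 10 genes were called for B, T and the interaction, and no call changed; between B and T labels no such fit was possible, since they share no numbers. All sign changes were of genes not called. For resting B against activated T, Fos was 0.03 with array weights, and Fosl1 was -0.01 with median and with 75th percentile centring. With an array left out, values in that comparison ranged from -0.19 to 0.23 for Fos, -0.04 to 0.09 for Fosl1, -0.06 to 0.34 for Jun, -0.15 to 0.03 for Jund and -0.04 to 0.29 for Atf3, and for activated B against resting T from -0.18 to 0.04 for Fosb. The cause was not tested. Batf in activated B against resting T passed in 4 of the other settings (adjusted p 0.033 to 0.0473 from limma), and Junb in activated B against activated T (0.29, adjusted p = 0.0577) passed without activated B replicate 1 (0.38, adjusted p = 0.0205), without resting B replicate 2 (adjusted p = 0.0472) and with array weights (0.35, adjusted p = 0.0121), among others. Fosl1 in resting B against resting T passed only without resting T replicate 5 (-0.33, adjusted p = 0.0221). With 75th percentile centring, 49.5% of called genes were higher for activated B against resting T (56.8% without it) and 48.7% for resting B against activated T (52.3% without it). The dim-gene filter left Fosl1 untested. For the interaction it gave the count of 9, which was every gene tested, so no call was lost there. Levels near 5.21 log2 limit what can be seen of Fosl1 and of the low groups of Fos and Fosb.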

Other observations

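Members of the family that lie near each other on a chromosome did not always change together. Fos and Batf start 213 kb apart on chromosome 12 (GRCm38.p6), with the AP-1 repressor gene Jdp2 as the 1 protein-coding gene between them, and changed with opposite signs in both labelled cell types. Jdp2 took the sign of Batf, with log2 fold changes of 0.73 in the labelled B arrays and -0.32 in the labelled T arrays (adjusted p = 7.59e-05 and 0.0454 from limma). Batf3 and Atf3 start 84.9 kb apart on chromosome 1 and changed with the same sign in both. Between them lies 1 protein-coding gene, Fam71a, at a mean of 4.97 log2, under the background, with -0.01 and 0.09 (adjusted p = 0.96 and 0.661). These pairs were chosen after their values were seen.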
